A study of Mus musculus with 4 samples.

Results

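The Ly49 receptors examined here are the products of 5 mouse genes, Klra1 (Ly49A), Klra4 (Ly49D), Klra7 (Ly49G), Klra8 (Ly49H) and Klra9 (Ly49I). They were taken by gene symbol from the 32285 genes listed in each of 4 droplet single-cell RNA libraries, and all 5 were listed in every library. The animals were male C57BL/6-background mice aged 8 weeks, either wild-type (WT) or deficient in Ndufa4 (KO), a small subunit of mitochondrial complex IV. All mice of both genotypes carried a subcutaneous B16-F10 tumour, a melanoma line of the same strain, and organs were taken on day 18 after implantation. The tumour libraries came from cells sorted for the leukocyte marker CD45, and the spleen libraries from cells sorted for CD45 and the integrin CD11b, so organ and sort cannot be told apart. Each of the 4 groups is 1 library pooled from 3 mice per the series text, or up to 4 per the protocol, so no difference has a replicate check and no p-value was computed. The labels used here do not say how Ndufa4 was inactivated, or in which cells.

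Ly49 receptors are C-type lectin-like proteins of natural killer (NK) cells and some T cells, encoded side by side in the NK gene complex. The inhibitory members, among them Ly49A, Ly49G and Ly49I, carry a cytoplasmic motif that recruits the phosphatases SHP-1 and SHP-2 when the receptor binds classical MHC class I. The activating members Ly49D and Ly49H lack that motif and signal through the adaptor DAP12 (gene Tyrobp), and Ly49H recognises a protein of mouse cytomegalovirus. Each NK cell switches on its own subset of the genes, largely independently of one another, so that a population holds many combinations.

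In the GENCODE annotation of GRCm38, the 5 genes lie on the minus strand of chromosome 6 within 343.1 kb, between positions 130043731 and 130386874, and the deposited gene identifiers matched that annotation for 5 of 5. In order of position they are Klra4 (chr6:130043731-130067271), Klra8 (chr6:130115226-130129898), Klra9 (chr6:130178675-130193112), Klra7 (chr6:130218605-130233322) and Klra1 (chr6:130363917-130386874). Ndufa4 is on the same chromosome, 117.9 Mb away. The 300 bases around each start, 250 before it and 50 after, are shown because they let the reader see how far these 5 neighbouring genes share their starts. They are RefSeq sequences of build GRCm38.p6, on the minus strand, written 5′ to 3′. For Klra7 and Klra8, which have 2 listed starts each, the more upstream one is shown. Capitals mark the bases of every 10-base stretch found in at least 3 of the 5 sequences. A longer capital run joins overlapping stretches and need not be whole in 3 sequences.
Klra1 start, chr6:130386825-130387124: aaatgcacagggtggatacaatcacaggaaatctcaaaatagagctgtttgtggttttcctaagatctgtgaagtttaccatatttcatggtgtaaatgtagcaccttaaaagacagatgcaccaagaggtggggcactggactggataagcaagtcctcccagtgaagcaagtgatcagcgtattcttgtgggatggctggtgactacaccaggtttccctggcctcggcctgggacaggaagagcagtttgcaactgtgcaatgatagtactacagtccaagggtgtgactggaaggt
Klra4 start, chr6:130067222-130067521: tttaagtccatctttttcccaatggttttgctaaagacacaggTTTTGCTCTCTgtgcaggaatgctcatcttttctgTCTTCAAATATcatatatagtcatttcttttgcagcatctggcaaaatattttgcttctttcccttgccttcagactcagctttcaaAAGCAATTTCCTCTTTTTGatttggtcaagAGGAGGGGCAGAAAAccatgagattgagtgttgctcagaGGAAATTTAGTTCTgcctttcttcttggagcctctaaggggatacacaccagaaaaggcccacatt
Klra7 start, chr6:130233273-130233572: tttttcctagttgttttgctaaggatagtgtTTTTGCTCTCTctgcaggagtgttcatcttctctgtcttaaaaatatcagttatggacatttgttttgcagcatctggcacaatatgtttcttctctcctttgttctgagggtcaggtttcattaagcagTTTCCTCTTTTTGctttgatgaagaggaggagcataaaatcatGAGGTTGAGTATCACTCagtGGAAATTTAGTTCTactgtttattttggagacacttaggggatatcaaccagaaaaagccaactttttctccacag
Klra8 start, chr6:130129849-130130148: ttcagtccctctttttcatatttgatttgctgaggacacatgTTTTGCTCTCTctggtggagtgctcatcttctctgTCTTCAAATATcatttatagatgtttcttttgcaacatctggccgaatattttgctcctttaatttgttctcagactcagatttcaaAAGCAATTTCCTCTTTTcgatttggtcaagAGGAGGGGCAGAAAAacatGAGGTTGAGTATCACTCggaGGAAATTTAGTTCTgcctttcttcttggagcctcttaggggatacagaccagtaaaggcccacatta
Klra9 start, chr6:130193063-130193362: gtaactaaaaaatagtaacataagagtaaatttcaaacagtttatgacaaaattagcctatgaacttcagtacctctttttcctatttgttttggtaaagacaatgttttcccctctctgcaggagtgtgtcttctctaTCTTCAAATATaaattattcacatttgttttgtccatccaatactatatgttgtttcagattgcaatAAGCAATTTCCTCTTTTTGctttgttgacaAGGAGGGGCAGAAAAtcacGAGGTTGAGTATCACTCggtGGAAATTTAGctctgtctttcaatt

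The starts of Klra4, Klra7, Klra8 and Klra9 held between 55 and 85 such capital bases, in joined runs of up to 19, whereas that of Klra1 held 0. Aligned end to end, the start regions of Klra4 and Klra8, the activating pair, were identical at 86.6% of 299 aligned bases with 2 gap bases. Those of Klra1 and Klra4 were identical at 67.6% of 250 aligned bases with 100 gap bases. The nearest relative among the genes compared was outside the 5: the Klra9 start region was identical to that of Klra3 (Ly49C, also inhibitory) at 96.4% of 281 aligned bases. Short motifs were searched on both strands and did not overlap. The RUNX core TGTGGT was in the Klra1 region alone of the 5, and in 16.8% of all 32851 promoters of that length. The T-box core GGTGTG was in those of Klra1 and Klra4 and in 19.05% of all promoters. The TCF/LEF core CTTTGA was in that of Klra7 and in 16.0% of all, and TATAAA was in those of Klra8 and Klra9 and in 13.6% of all. The ETS core GGAAGT was in none of the 5 and in 23.8% of all promoters.

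The likeness extends to the transcript ends that a 3′ library reads. Of the 50-base windows in the last 500 bases of the longest coding transcript, 44.8% for Klra9 and 27.5% for Klra7 were also found in a transcript of another Ly49 gene. The share was 13.1% for Klra8, 5.76% for Klra1 and 4.66% for Klra4. With 90-base windows it was 14.1% for Klra9, 10.2% for Klra7 and 0 for the other 3. How reads matching several genes were counted is not stated in the files or labels used here, so the levels of Klra9 and Klra7, and of the relatives Klra3 and Klra10, are the least certain.

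NK cells were taken as cells with at least 1 unique molecular identifier (UMI) of Ncr1, the NK receptor NKp46, and none of Cd3d, Cd3e or Cd3g. This gate held 1180 WT and 2466 KO cells in the spleen, with median depths of 4355.5 and 4117.5 UMIs. It held 103 WT and 478 KO cells in the tumour, with medians of 6781 and 6835. The kept libraries held 7120, 6757, 3865 and 4428 cells in the order spleen WT, spleen KO, tumour WT and tumour KO, and any pair shared at most 14 barcodes. Within the gate, Ndufa4 stood at 361.8 counts per 1000000 UMIs (CPM) in spleen WT, 0.253 in spleen KO (3 UMIs), 329.7 in tumour WT and 4.55 in tumour KO (17 UMIs), as the genotype labels state. All 7 NK markers checked were detected in each library, at a summed level of 8682 to 16537 CPM. The gate was not pure: the 7 phagocyte markers together stood at 1165 to 1710 CPM with none at 0, and 5 neutrophil markers at 4181 and 5727 CPM in the spleen and 1145 and 17.1 CPM in the tumour. A stricter gate, chosen after these values were seen, also required Klrb1c (NK1.1) and no UMI of Csf1r, Csf3r, Cd79a, Ms4a1 or Siglech. It kept 70.0% and 76.6% of the spleen and 83.5% and 88.3% of the tumour NK-gate cells.

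Most NK cells carried RNA of at least 1 of the 5 receptors. To compare shares, each cell was thinned to 2000 UMIs, which left 1163 WT and 2434 KO spleen cells and 99 WT and 466 KO tumour cells. At that depth, 88.4% [86.4, 90.2] of spleen WT and 91.9% [90.8, 92.96] of spleen KO cells had a UMI of a member, against 69.7% [59.6, 78.5] of tumour WT and 75.5% [71.4, 79.4] of tumour KO cells. Square brackets give 95% intervals, which cover counting error only and not the spread between mice. Without thinning the shares were 91.8%, 95.3%, 74.8% and 84.5%. Cells that should lack these receptors gave a background level, and how much of it was free RNA was not tested. At 2000 UMIs, 5.34% of spleen WT and 13.3% of spleen KO B cells had a UMI of a member (median depths 6579 and 5636), and so did 5.45% and 9.37% of Csf1r-positive phagocytes. In the tumour, 0.571% of WT and 1.33% of KO phagocytes did. Csf3r-positive neutrophils gave 9.23% and 13.7% in spleen WT and KO. In the tumour they gave 0.654% of 459 WT and 4.62% of 65 KO cells.

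Among the inhibitory receptors, Klra9 and Klra7 were found in close to every other spleen NK cell, and Klra1 in far fewer. Klra9 was detected in 50.0% of spleen WT, 49.6% of spleen KO, 17.2% of tumour WT and 27.7% of tumour KO cells. Its level was 573.9, 622.7, 197.3 and 264.7 CPM in the same order. Klra7 was detected in 45.7%, 47.4%, 34.3% and 36.1%, at 443.2, 456.8, 340.8 and 285.9 CPM. Klra1, whose best-known ligand is an MHC class I allele that C57BL/6 mice lack, was detected in 12.1%, 11.8%, 6.06% and 9.01%, at 118.0, 133.8, 80.9 and 66.1 CPM. For Klra7, Klra9 and Klra1 both spleen levels were above both tumour levels.

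Klra8 was the member with the highest CPM in both spleen libraries, and Klra4 in both tumour libraries. A UMI is counted once per captured molecule, so these CPM do not scale with transcript length. Klra8 was detected in 71.5% [68.9, 74.1] of spleen WT, 68.7% [66.8, 70.5] of spleen KO, 40.4% [30.7, 50.7] of tumour WT and 40.8% [36.3, 45.4] of tumour KO cells. Its level was 1392, 1209, 480.5 and 473.5 CPM. Klra4 was detected in 52.0%, 54.1%, 40.4% and 43.8%, at 974.3, 1076, 562.6 and 603.9 CPM. In spleen, the shares of Klra8 and Klra4 did not overlap in their intervals, whereas in the tumour they did.

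**Figure D1:**
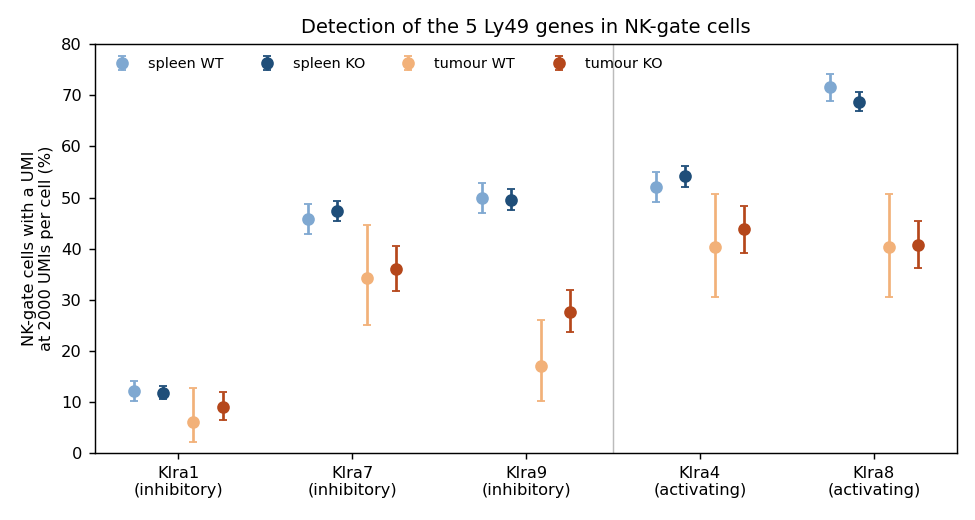
Share of NK-gate cells (%, y axis) with at least 1 UMI of each Ly49 gene (x axis) after thinning each cell to 2000 UMIs, in 4 libraries of 1 pooled sample each; bars are exact 95% binomial intervals for counting error. Klra8 lies at 71.5% and 68.7% in the spleen libraries and at 40.4% and 40.8% in the tumour libraries.

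The genotypes differed little in the summed level of the 5 receptors. In the spleen the sum was 3502 CPM in WT and 3498 CPM in KO cells, a log2 KO/WT ratio of -0.0014 [-0.025, 0.022]. In the tumour it was 1662 and 1694 CPM, a log2 ratio of 0.03 [-0.06, 0.11]. No member was 1.5-fold apart between genotypes in either organ (0 of 5 in each). Of all genes tested, 12.6% of 11959 were apart in spleen NK cells and 22.3% of 9762 in tumour NK cells. With 5 members, a count of 0 does not set them apart from these shares. Here and below, all genes with at least 20 UMIs over both libraries were tested, so such shares are not matched to the members in level. The members' median log2 ratio was 0.12 in the spleen and -0.02 in the tumour, and that of all genes tested was -0.0081 and -0.04. Within the stricter gate the summed log2 ratio was -0.14 [-0.17, -0.12] in the spleen and -0.08 [-0.17, 0.01] in the tumour, so the spleen value moved below 0 once cells with markers of other lineages were left out.

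Smaller differences stood in single members, each with counting error alone behind its interval. Klra8 was lower in KO spleen cells, with a log2 ratio of -0.20 [-0.24, -0.17], and stayed between -0.35 and -0.10 in the 9 other ways the ratio was computed. Klra4, its activating partner, was higher in KO there, at 0.14 [0.10, 0.19], and its 9 alternatives ranged from 0.0085 to 0.25. In the tumour Klra9 was higher in KO, with 161 UMIs in WT and 989 in KO and a log2 ratio of 0.42 [0.18, 0.67], and its alternatives ranged from 0.30 to 0.80. Its share of tumour cells was 10.5 percentage points higher in KO [1.07, 18.0]. Klra7 was lower in KO tumour cells at -0.25 [-0.45, -0.06], but thinned to 2000 UMIs the ratio was 0.07. The spleen ratios of Klra1 (0.18) and Klra9 (0.12) were below 0 in the stricter gate, at -0.12 and -0.04. The share of spleen NK cells with any member was 3.51 points higher in KO [1.45, 5.73], and -0.349 points in the stricter gate.

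Genes of NK maturation and tissue residence were set beside the members. Of 12 mature NK genes, 0 were 1.5-fold apart between genotypes in spleen NK cells, as for the members, against 12.6% of all genes. In tumour NK cells, 4 of the 12 were at least 1.5-fold higher in KO (Klrg1, Gzma, Gzmb and Prf1, the last 3 being cytotoxic granule genes), against 9.33% of all genes, and Cx3cr1 was lower, against 13.0%. Of 8 tissue-resident or type 1 innate genes tested there, 5 were lower in KO (Cd200r1, Cxcr6, Gzmc, Inpp4b and Tmem176a), against 13.0% of all genes. Of 7 tested in the spleen, 2 were lower in KO (Tmem176a and Tmem176b) and Inpp4b was higher, against 12.6% of all genes in either direction. Inpp4b thus went opposite ways in spleen and tumour. Of 12 early NK genes, 0 were apart in the spleen. In the tumour Xcl1 was higher in KO, against 9.33% of all genes, and Il7r and Tcf7 were lower, against 13.0%.

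Differences between organs were larger than those between genotypes. The summed level in tumour NK cells was lower than in spleen NK cells by a log2 ratio of -1.08 [-1.16, -0.996] in WT and -1.05 [-1.08, -1.01] in KO mice. At least 1.5-fold lower were 3 of 5 members in WT (Klra4, Klra8, Klra9), against 33.1% of all genes tested, and 5 of 5 in KO, against 35.5%. The median log2 ratio over all genes tested was -0.27 in WT and -0.32 in KO, and relative to it the sums were lower by log2 ratios of -0.80 and -0.73. Relative to that median, 2 of 5 members in WT (Klra8, Klra9) and 3 of 5 in KO (Klra1, Klra8, Klra9) were still 1.5-fold lower. The size differed between members. Klra8 had log2 ratios of -1.54 [-1.68, -1.39] in WT and -1.35 [-1.42, -1.28] in KO, and Klra9 -1.54 [-1.78, -1.31] and -1.23 [-1.33, -1.14]. Klra7 had -0.38 [-0.56, -0.20] in WT and -0.68 [-0.77, -0.58] in KO. Over the alternatives its WT value ran from -0.10 when centred on the median gene to -0.77 when thinned, and it was then not the smallest difference. Klra4 had -0.79 and -0.83, and Klra1 -0.55 and -1.02.

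At equal depth, tumour NK cells had both fewer positive cells and fewer UMIs per positive cell for Klra4, Klra7, Klra8 and Klra9 in each genotype. The share of Klra8-positive cells was 31.1 points lower in tumour WT [-40.6, -20.9 as tumour minus spleen] and 27.9 points lower in tumour KO [-32.7, -23.0]. Thinned Klra8-positive cells held on average 4.76 and 3.92 UMIs in spleen WT and KO, against 3.15 and 2.73 in the tumour. Thinned Klra4-positive cells held 4.36 and 4.42 UMIs in the spleen and 3.425 and 3.12 in the tumour. For Klra1 the mean was 2.30 and 2.33 in the spleen and 2.5 and 1.98 in the tumour, so it was not lower in both genotypes.

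Other genes of NK maturation differed between the same libraries. Of 12 mature NK genes, 11 were at least 1.5-fold lower in the tumour in both genotypes, against 33.1% of all genes in WT and 35.5% in KO. The medians of the 12 were -1.56 in WT and -1.96 in KO. Among the 11 were Klrg1 (log2 ratios -2.65 and -2.18), a receptor of terminally mature cells, and S1pr5 (-3.35 and -3.27), which guides NK cells out of tissue. Of 12 early NK genes, 11 in WT and 10 in KO were at least 1.5-fold higher in the tumour, against 12.7% and 14.0% of all genes. Their medians were 1.52 and 1.57. Of 9 tissue-resident or type 1 innate genes, 8 were higher in each, against 12.7% and 14.0% of all genes. The CD11b sort of the spleen itself selects mature NK cells, and its part in these values was not tested.

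The signalling genes and ligands of Ly49 receptors were set beside them. Tyrobp, the adaptor of Klra4 and Klra8, was at 1430 and 1645 CPM in spleen WT and KO and at 1706 and 2139 CPM in the tumour. Its level in the whole gate was thus not lower in the tumour, where those of its receptors were. Spleen gate cells without a member, many with phagocyte genes, also had Tyrobp, in 89.6% of WT and 87.3% of KO. With a member the shares were 91.8% and 94.6%. Hcst, the adaptor DAP10, stood between 398.6 and 440.6 CPM in the 4 libraries. Ptpn6 (SHP-1) was at 168.1 and 137.7 CPM in the spleen and 95.6 and 96.1 CPM in the tumour, log2 ratios of -0.81 [-1.17, -0.48] in WT and -0.52 [-0.69, -0.35] in KO. Of the 12 signalling genes, 0 were 1.5-fold apart between genotypes in either organ, against 12.6% of all genes in the spleen and 22.3% in the tumour. In each genotype 3 were 1.5-fold lower in the tumour (Cd247 and Syk in both, Ptpn6 in WT, Lat in KO), against 33.1% of all genes in WT and 35.5% in KO. The medians of the 12 genes, -0.43 and -0.46, were near those of all genes. The MHC class I ligand gene H2-D1 was at 1620 and 1650 CPM in spleen and 2189 and 2502 CPM in tumour NK cells, and H2-K1 stayed between 2363 and 2841 CPM. Of the 3 ligand genes, H2-D1 was called 1.5-fold higher in the tumour in KO (log2 ratio 0.60), against 14.0% of all genes, and 0 in WT (0.43).

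The files list 6 other Ly49 genes. Klra3 followed the members in NK cells, at 244.4 CPM in spleen WT, 192.7 in spleen KO, 125.0 in tumour WT and 115.9 in tumour KO. Its spleen log2 KO/WT ratio was -0.34 [-0.44, -0.25]. Klra5 (Ly49E), Klra6 (Ly49F) and Klra10 (Ly49J) stood between 3.75 and 18.3 CPM in NK cells. A pair of genes belonged to other cells. Klra2 (Ly49B) was found at 2000 UMIs in 29.5% and 32.3% of spleen and 16.5% and 32.2% of tumour Csf1r-positive phagocytes of WT and KO mice, and in at most 4.21% of NK-gate cells. It was also found in 25.2%, 19.6%, 20.04% and 9.23% of Csf3r-positive neutrophils, in the order spleen WT, spleen KO, tumour WT and tumour KO. Klra17 (Ly49Q) reached 144.4 CPM in 16 WT and 194.7 CPM in 17 KO tumour cells with Siglech, a plasmacytoid dendritic cell gene, and at most 5.09 CPM in NK-gate cells. Spleen neutrophils had 73.1 CPM of Klra17 in the WT and 51.3 CPM in the KO library.

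**Figure D2:**
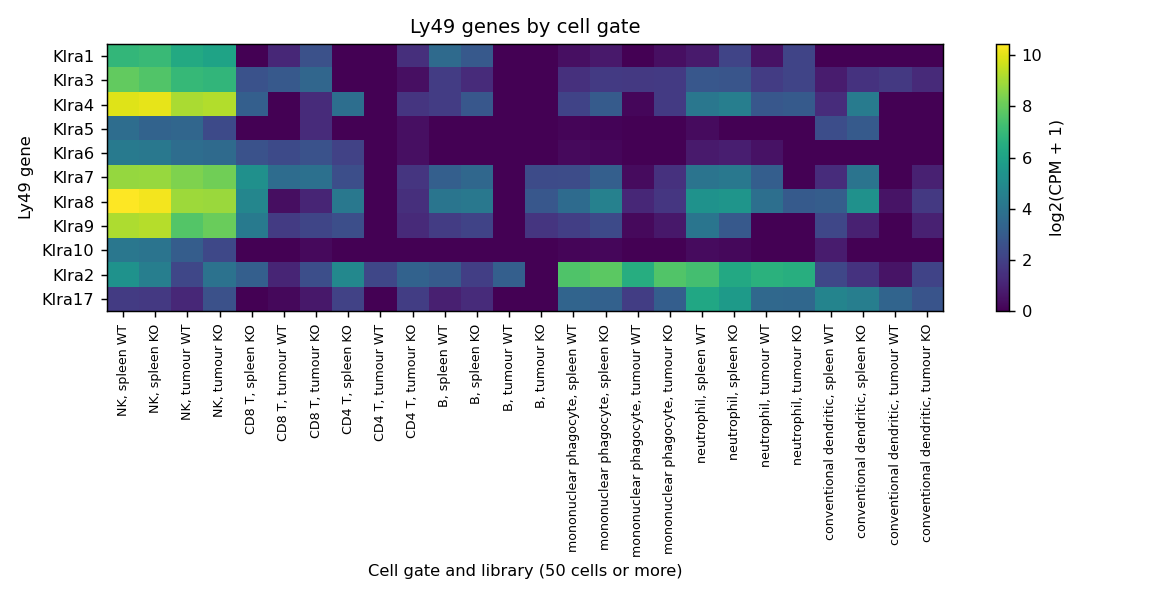
Level of 11 Ly49 genes (rows) as log2(CPM + 1) of summed UMIs in each cell gate and library with at least 50 cells (columns). Klra1, Klra3, Klra4, Klra7, Klra8 and Klra9 are brightest in the NK gate, and Klra2 in phagocytes (91.0 to 224.8 CPM) and neutrophils (78.01 to 160.5 CPM).

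Over 26 gates of single libraries with at least 50 cells each (NK, CD8 and CD4 T, B, phagocyte, neutrophil and dendritic), the genes outside the family most like the summed members were Gzma (Pearson r = 0.957), Klrb1c (0.949), Arl4d (0.902), Cma1 (0.900) and Klre1 (0.876), out of 13712 genes with at least 100 UMIs. The points share libraries and differ mainly in whether they hold NK cells, so r is a description without a p-value. Gzma encodes granzyme A, Cma1 a mast cell chymase also made by mature NK cells, and Klre1 a further lectin-like NK receptor. Gzma was at 7396, 9083, 3194 and 5784 CPM in spleen WT, spleen KO, tumour WT and tumour KO NK cells, the same order of organs as the members.

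Most spleen NK cells held RNA of several receptors, and tumour NK cells held fewer. Spleen NK cells had on average 2.31 members detected in WT and 2.32 in KO, and tumour NK cells 1.38 and 1.57. At least 2 members were found in 77.0% of spleen WT, 77.9% of spleen KO, 45.5% of tumour WT and 51.3% of tumour KO cells. If members were detected independently, the product of their shares would give 78.6%, 78.5%, 42.8% and 50.8%, so the ratios were 0.979, 0.992, 1.06 and 1.01. The ends of the distribution departed more. Cells with 0 members made up 11.6% of spleen WT and 8.09% of spleen KO cells, against 3.26% and 3.36% from the product, and 30.3% and 24.5% of tumour cells, against 18.1% and 14.0%. Cells with exactly 1 were fewer than the product in all 4 libraries, for example 24.2% against 35.2% in tumour KO.

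**Figure D3:**
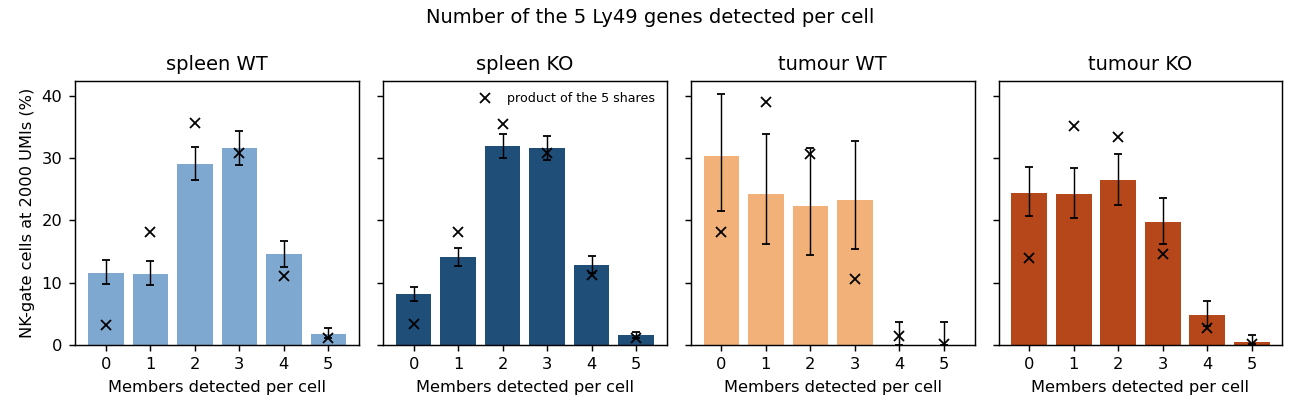
Number of the 5 Ly49 genes detected per NK-gate cell at 2000 UMIs (x axis) and share of cells (%, y axis) in each library; bars are measured shares with exact 95% binomial intervals, crosses the shares that the product of the single shares gives. In spleen WT, 11.6% of cells had 0 members against 3.26% from the product.

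Inhibitory and activating members were often found in the same cells. Both kinds were detected in 67.9% of spleen WT, 66.1% of spleen KO, 32.3% of tumour WT and 40.3% of tumour KO NK cells at 2000 UMIs. Cells with activating members alone made up 13.1%, 15.1%, 23.2% and 16.95%, and cells with inhibitory members alone 7.39%, 10.7%, 14.1% and 18.2%. The share with inhibitory members alone was thus lowest in spleen WT, and its intervals in spleen WT [5.96, 9.05] and tumour KO [14.8, 22.1] did not overlap.

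The cells without a member were unlike the rest of the gate. In spleen WT, 40.7% of the 135 such cells had Csf1r and 66.7% had the phagocyte lysozyme gene Lyz2, against 3.21% and 14.7% of the 1028 cells with a member. In spleen KO these shares were 27.9% and 44.7% of 197 cells, against 1.92% and 13.4% of 2237. Granzyme A (Gzma) was found in 31.1% and 46.7% of spleen cells without and in 99.1% and 99.2% of those with a member. In the stricter gate, cells with 0 members made up 3.17% of spleen WT and 3.52% of spleen KO cells, against 1.93% and 2.503% from the product. The distance from the product was smaller there. In the tumour the stricter gate gave 23.8% and 20.3%, against 14.5% and 12.01%.

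In the tumour, some genes of innate lymphoid and tissue-resident cells were found more often in the cells without a member. Il7r, the interleukin-7 receptor, was found in 36.7% of 30 such WT cells and 22.8% of 114 such KO cells, against 5.80% and 1.14% of cells with a member. Tmem176b was found in 26.7% and 21.9%, against 1.45% and 0.852%. Klrc1, which encodes the inhibitory receptor NKG2A, was found in 46.7% and 41.2%, against 18.8% and 15.9%. Eomes, a transcription factor of conventional NK cells, was found in 16.7% and 18.4%, against 50.7% and 40.1%. Csf1r was found in 13.3% and 8.77%, against 2.90% and 0.568%, so phagocyte RNA was also higher in cells without a member. Of the listed tissue-resident genes, Itga1 and Itgae had intervals that include 0 in both tumour libraries. So had Cd200r1 and Tnfsf10 in WT and Cxcr6 and Gzmc in KO. The spleen gave higher shares in cells without a member too, for Il7r (8.15% and 8.12%, against 1.07% and 0.805%) and Tmem176b (13.3% and 11.2%, against 0.292% and 0.536%).

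Pairs of members departed from the product in both directions. In the stricter gate, the activating pair Klra4 and Klra8 was found together in 45.5% of spleen WT and 43.2% of spleen KO cells, 1.05 and 1.07 times the product of the shares. In the tumour the same pair was in 28.6% of WT and 28.9% of KO cells, 1.47 and 1.45 times the product. Klra4 was also found more often with Klra7, at 1.13, 1.10, 1.14 and 1.19 times the product in spleen WT, spleen KO, tumour WT and tumour KO. Klra7 with Klra8, an inhibitory and an activating member, was at 1.03, 1.04, 1.27 and 1.31 times the product in the same order. A higher ratio in the tumour was thus not particular to the activating pair. Klra1 with Klra4 was at 1.21 and 1.22 times the product in the spleen and 1.29 in tumour KO, while tumour WT had 1 such cell. These factors have no test, since cells of 1 library are not replicates. A gene found in most cells leaves little room above the product. Factors of common and rare genes, or of spleen and tumour, are therefore not on the same scale. As odds ratios, the Klra4 and Klra8 pair stood at 1.59 and 1.69 in spleen WT and KO and at 4.86 and 4.63 in the tumour.

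Pairs of Klra9 with Klra1, Klra4 and Klra7 lay below the product in the spleen. Klra9 was found less often than the product with Klra4 (0.898 in WT, 0.875 in KO), with Klra7 (0.904 and 0.934) and with Klra1 (0.922 and 0.799). Expressed as an odds ratio, the Klra4 and Klra9 pair stood at 0.592 in spleen WT and 0.531 in spleen KO. Klra9 with Klra8 was at 1.03 times the product in spleen WT and 1.00 in spleen KO, odds ratios of 1.38 and 1.02. In the wider gate, which holds the cells of other lineages, the Klra4 and Klra9 pair was nearer the product, at 0.989 and 0.917. In tumour KO the pair was at the product (1.00, 57 cells), and in tumour WT at 0.884, with 6 cells.

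**Figure D4:**
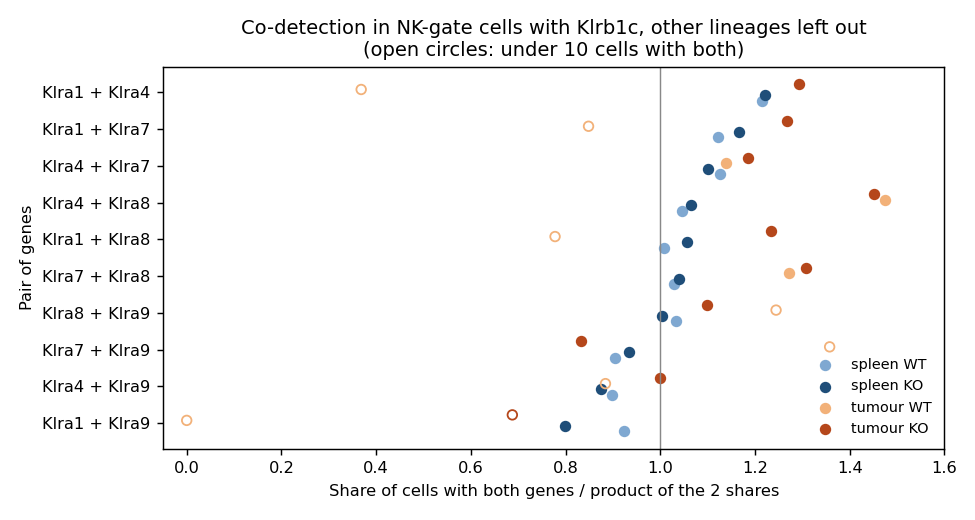
Share of NK cells with both genes of a pair divided by the product of the 2 single shares (x axis) for the 10 pairs of members (y axis), in the stricter gate at 2000 UMIs; points are libraries and open circles rest on under 10 cells with both genes. The pairs of Klra9 with Klra1, Klra4 and Klra7 lie below 1 in both spleen libraries, and Klra4 with Klra8 lies at 1.47 and 1.45 in the tumour libraries.

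Detection of NKG2A divided the NK cells by their Ly49 repertoire. In the stricter gate, Klra4 was found in 30.2% of the 245 spleen WT cells with Klrc1 and in 67.2% of the 574 without, a difference of -37.0 points [-43.6, -29.8]. In spleen KO the shares were 33.5% of 559 and 66.6% of 1314 cells, -33.1 points [-37.7, -28.4]. In tumour WT they were 8.33% of 24 and 60% of 60 cells, -51.7 points [-64.6, -30.1], and in tumour KO 22.7% of 97 and 52.5% of 322 cells, -29.8 points [-38.8, -19.0]. Klra4 was therefore lower in the cells with Klrc1 in 4 of 4 libraries. Klra8 and Klra7 were also lower there in 4 of 4 libraries, Klra8 by 8.71 and 16.1 points in the spleen and by 42.5 and 27.3 points in the tumour. The Klra7 difference in tumour WT, -20 points [-38.0, 3.19], had an interval that included 0, unlike those of the other libraries. Klra9 differed by 2.79 [-4.66, 10.1] and 1.83 [-3.11, 6.72] points in spleen WT and KO, intervals that include 0. In the tumour it was lower with Klrc1 in KO, by -10.6 points [-19.4, -0.25], and in WT the difference was -7.5 points [-21.8, 12.7]. In the tumour, 45.8% of WT and 55.7% of KO cells with Klrc1 had any member, against 88.3% and 87.0% of those without.

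**Figure D5:**
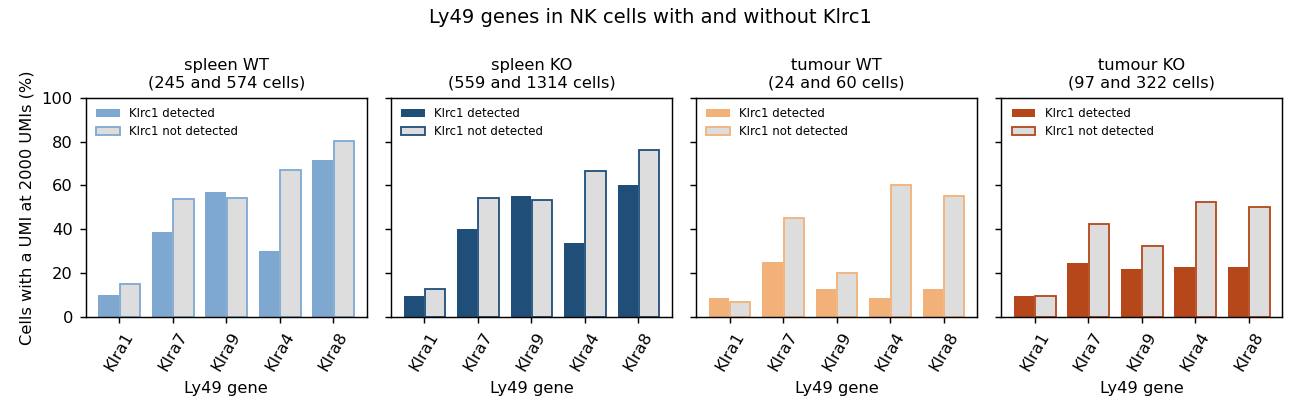
Share of NK cells (%, y axis) with a UMI of each Ly49 gene (x axis) in cells with (solid bars) and without (grey bars) a UMI of Klrc1, in the stricter gate at 2000 UMIs, for 4 libraries. The Klra4 bars stand at 30.2% against 67.2% in spleen WT and at 22.7% against 52.5% in tumour KO, while the Klra9 bars in the spleen differ by under 3 points.

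The maturation marker Klrg1 gave another split. In the stricter gate, Klra9 was found in 65.8% of the 199 spleen WT cells with Klrg1 and in 51.8% of the 620 without, 14.1 points more [6.18, 21.4]. In spleen KO it was in 63.4% of 497 and 50.4% of 1376 cells, 13.0 points more [7.95, 17.9]. In the spleen Klra4 went the other way, by -16.4 points [-24.1, -8.47] in WT and -14.2 points [-19.2, -9.08] in KO. In tumour KO, Klra9 was in 48.5% of 33 cells with Klrg1 and 28.2% of 386 without, and Klra4 in 54.5% and 44.8%, whereas tumour WT held too few cells with Klrg1 to compare. Cd27, a receptor of less mature NK cells, gave the opposite order for Klra9 in the spleen. In the same gate, Klra9 was found in 38.5% of the 104 spleen WT cells with Cd27 against 57.6% without, -19.2 points [-28.6, -8.89], and in 42.0% against 55.3% in spleen KO, -13.3 points [-20.2, -6.20]. The Klra4 differences of 6.15 [-4.10, 15.7] and 6.81 [-0.28, 13.5] points included 0. A split by Itgam, the gene of CD11b and also on the mature NK list, differed from that by Klrg1. Klra9 was higher with Itgam by 8.53 points [1.48, 15.5] in spleen WT and 4.55 [-0.06, 9.15] in spleen KO. For Klra4 the spleen differences were 0.16 [-6.80, 7.19] and -3.60 [-8.14, 0.99] points, and that of tumour KO was 13.8 [1.79, 25.2].

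T cells were taken as cells with at least 2 CD3 UMIs and no Ncr1, and those of the tumour carried inhibitory but hardly any activating members. The tumour gates held 760 WT and 1997 KO cells. Klra7 led in both, with 132 UMIs (14.8 CPM) in WT and 496 UMIs (18.0 CPM) in KO, followed by Klra1 (4.36 and 9.76 CPM) and Klra9 (3.35 and 5.69 CPM). Klra4 had 0 UMIs in the 760 WT cells, which at 3 counts allows up to 0.395% of cells with a UMI and sets no limit on cells expressing the gene, and 64 UMIs (2.32 CPM) in KO. Klra8 had 2 UMIs in WT and 56 in KO. At 2000 UMIs, an inhibitory member was found in 3.31% [2.14, 4.89] of WT and 5.09% [4.16, 6.16] of KO T cells, against 0.0816% and 0.531% of phagocytes (median depths 9016.5 and 10602 UMIs for T cells and 14015.5 and 13907 for phagocytes). An activating member was found in 0.138% of WT and 0.916% [0.544, 1.44] of KO T cells, against 0.490% and 0.796% of phagocytes. The activating share was thus not above the phagocyte background beyond counting error in either genotype. In the spleen, any member was found in 3.57% of 84 WT and 9.91% of 212 KO T cells [0.743, 10.1 and 6.24, 14.7]. These intervals held the shares of spleen B cells and phagocytes given above, so the spleen T cell shares were not above that background.

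The summed level in tumour T cells was 22.7 CPM in WT and 37.8 CPM in KO, a log2 KO/WT ratio of 0.74 [0.52, 0.96]. Of the 5 members, 4 were at least 1.5-fold higher in KO, against 7.63% of the 13114 genes tested. Klra4 and Klra8 were among them, but the share of T cells with either was not above the phagocyte background. For the inhibitory members together the ratio was 0.57 [0.35, 0.80], from 1.16 [0.67, 1.69] for Klra1 to 0.29 [0.0059, 0.57] for Klra7. NK-gate cells made up 2.66% of the kept WT and 10.8% of the kept KO tumour cells, and phagocytes with an inhibitory member were at 0.0816% and 0.531%. The part of free NK RNA in the inhibitory values was not tested. The share of T cells with any member was 2.45 points higher in KO [0.59, 4.03], and 1.46 points [-0.41, 3.04] with another random draw of the thinning. In tumour CD4 T cells a UMI of a member was found at 2000 UMIs in 0 of 137 WT cells (exact interval up to 2.66%) and in 2.49% [1.01, 5.07] of 281 KO cells, so a difference was not detectable at this depth.

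The T cells with an inhibitory member were mostly not conventional CD8 T cells. Of the 24 WT and 100 KO cells with one at 2000 UMIs, 9 and 43 fell in the CD8 gate. Cd8b1, the beta chain of conventional CD8, was found in 12.5% of these WT and 15% of these KO cells, against 52.0% and 56.7% of other T cells. Cd4 was found in 0 and 2%, against 12% and 10.2%. Of 12 genes of innate-like or memory T cells, 6 were found more often in these cells in each genotype, with intervals above 0, and the other 6 had intervals that include 0, Eomes and Cxcr3 among them. Among those above 0 in both genotypes were Ly6c2, Fcer1g, Cd160 and Klrb1c. Fcer1g, a signalling adaptor of innate-like lymphocytes, was found in 58.3% and 41.0%, against 10.3% and 12.5%. Klrb1c was found in 25.0% and 21.0%, against 1.29% and 1.66%, and Klra6, an inhibitory relative outside the 5, in 16.7% and 20%, against 0.571% and 0.643%. Of 5 exhaustion genes, 3 in WT (Pdcd1, Havcr2, Tox) and 4 in KO (also Lag3) were found less often in these cells, with intervals below 0. Havcr2 (TIM-3) was in 0 and 6.00%, against 20.6% and 20.5%, and Tox in 4.17% and 15%, against 34.4% and 30.0%.

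Within the KO CD8 gate the same contrast was seen in 43 cells with and 1267 without an inhibitory member. Ikzf2, which encodes the transcription factor Helios, was found in 55.8% against 16.3%, a difference of 39.5 points [24.6, 53.4]. Cd8b1 was found in 34.9% against 80.3%, and Cd8a in 51.2% against 70.6%. The checkpoint genes Pdcd1 and Lag3 were each found in 14.0%, against 32.7% and 35.0%. Klrc1, too, was found less often, in 14.0% against 35.0%. Across all tumour T cells, Ikzf2 was in 62.0% against 27.0% in KO, but in 41.7% against 33.4% in WT, where the interval of the difference reached from -9.33 to 28.03 points.

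Cells with both Ncr1 and CD3 UMIs, left out of both gates, carried members at shares nearer to those of NK cells than of T cells. At 2000 UMIs a member was found in 68.2% of 22 tumour WT and 65.1% of 209 tumour KO cells, with an activating one in 31.8% and 44.98%. In the spleen a member was found in 77.4% of 31 WT and 80% of 65 KO cells. In tumour KO, 64.6% of these cells had a single CD3 UMI, against 31.8% in tumour WT.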

How the data were processed

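Each deposited matrix holds raw UMI counts for every gene in every barcode, without scaling, from a 10x Chromium 3′ v3.1 kit with 16000 cells loaded per lane, per the labels. The file headers name Cell Ranger 6.0.0, the submitters' processing notes Cell Ranger 3.1, Seurat 3.1.4 and 3.1 and the builds mm10 and GRCm38. Deposited barcodes and gene names were used as names alone.

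Cells were kept with at least 200 genes, 500 UMIs and at most 10% mitochondrial UMIs. Doublets were called per library with Scrublet (scanpy 1.11.5). Its threshold marked 5.44% and 2.80% of the spleen WT and KO cells. It marked under 0.5% in the tumour, where the top scores, at 0.8% per 1000 barcodes, were left out instead (3.83% and 4.90%). Depth per library was 46499361 to 63560706 UMIs.

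Cells were gated on UMIs without clustering. Background gates were Cd79a and Ms4a1 (B, at least 2 UMIs), Csf1r (phagocytes), Csf3r, Siglech and Flt3. UMIs were summed per gate and scaled to CPM; genes with at least 20 UMIs over both libraries entered counts of genes 1.5-fold apart. Log2 ratios have exact conditional binomial, shares exact Clopper-Pearson and differences Newcombe 95% intervals. Thinning drew 2000 UMIs per cell without replacement. Ratios, intervals, thinning and co-detection were tested on simulated data. Versions were python 3.11.15, numpy 2.4.6 and scipy 1.17.1.

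Named are the 5 members, the other Ly49 genes, genes of written lists (signalling, ligands, lectins, NK maturation, tissue residence, cycling, T cell states), Ndufa4, the gate genes and the 5 most like genes. Members and lists were chosen with earlier results of these data known. The splits by Klrc1, Klrg1, Cd27 and Itgam were added later. So were the profile of cells with a member, the grouping into inhibitory and activating members and the stricter gate. The alternatives varied the doublet and mitochondrial filters, the gates, the scaling, the thinning and the UMI minimum.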

Additional observations from a re-analysis of the deposited data

How the results depend on the processing

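Beside the reported value, each result was recomputed under other settings; intervals cover counting error only, and no cause of a move was tested. No paired analysis was possible because each group has 1 library, and for the same reason no replicate could be left out. Of the settings that moved a result beyond its interval, those on the spleen log2 KO/WT sum (-0.0014) gave 0.10 with doublets kept, -0.14 with 2 Ncr1 UMIs, 0.050 with Klrb1c in place of Ncr1, -0.15 without other lineages, -0.14 with Klrb1c required as well, -0.11 with equal weight per cell and -0.12 after thinning. The tumour sum (0.03) became 0.23 with Klrb1c in place of Ncr1, -0.10 without other lineages and -0.078 with Klrb1c required as well. The WT tumour/spleen sum (-1.08) became -0.93 with doublets kept, -1.19 with 2 Ncr1 UMIs, -1.21 with Klrb1c in place of Ncr1, -0.80 when centred on the median gene and -1.16 after thinning. The KO sum (-1.05) became -1.10 without other lineages, -1.005 with equal weight per cell, -0.73 centred and -0.996 thinned. All 18 recomputed organ sums were below 0. Members 1.5-fold lower in the tumour numbered 2 to 5 over the alternatives in WT and 3 to 5 in KO, lowest when centred.

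The spleen share with any member (3.51 points) became 0.19 points with 2 Ncr1 UMIs, and changed sign without other lineages (-0.63) and with Klrb1c required as well (-0.35). The T cell share (2.45 points) was 8.70 points without thinning. The co-detection ratio moved to 1.02 in spleen WT and 1.01 in spleen KO at 1000 UMIs, and to 0.965 in spleen KO without thinning. Genes 1.5-fold apart by genotype numbered 1503 in spleen and 2177 in tumour NK cells. With no UMI minimum there were 5999 and 7078, and with at least 100 UMIs 566 and 610.

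Among single members by genotype whose reported interval excluded 0, the sign changed for spleen Klra1 (-0.11 without other lineages, -0.12 with Klrb1c required as well, -0.017 thinned). The same held for spleen Klra9 (-0.032 with 2 Ncr1 UMIs, -0.054 without other lineages, -0.045 with Klrb1c required as well, -0.0055 with equal weight). It also held for tumour Klra7 (0.017 with Klrb1c in place of Ncr1, 0.068 thinned). Members whose reported interval included 0 changed sign as well. Spleen Klra7 (0.044) fell as low as -0.13 and tumour Klra4 (0.10) as low as -0.08. Tumour Klra1 (-0.29) ran from -0.61 [-1.03, -0.17], with 2 Ncr1 UMIs, to 0.23, and tumour Klra8 (-0.02) rose as high as 0.13. That value of Klra1 was past 1.5-fold lower in KO, and tumour Klra9 was past 1.5-fold higher in 1 setting (0.80). In such settings the count of 0 tumour members 1.5-fold apart by genotype did not hold. The tumour WT gate of 103 cells limits every value that uses it.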
